A study of Mus musculus with 12 samples.

Results

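The uroplakins are a small family of membrane proteins, and this section describes the 5 genes Upk1a, Upk1b, Upk2, Upk3a and Upk3b across prostate lobe and Med1 genotype in the mouse. They were taken by name, with earlier results of these data known. Each gene was read from the probe sets that the platform annotation gives to it alone, and the brightest of them, by its mean over the 12 arrays, stood for the gene. All 5 genes had at least 1 such probe set, 9 in all (4 for Upk1b, 2 for Upk3b and 1 for each of the others), and they are 5 of the 18194 genes measured. The study profiled total RNA from mice aged 16 weeks on 12 single-colour Affymetrix arrays, 3 in each of 4 groups: wild type ventral prostate, Med1 knockout ventral prostate, wild type lateral prostate and Med1 knockout lateral prostate. The product of Med1 belongs to Mediator, which links transcription factors on DNA, nuclear receptors among them, to RNA polymerase II. The sources used here give no strain, no driver of the deletion, no cell type it acts in and no part of the gene removed. Separate animals are not stated for the 3 arrays of a group, and the p-values then reflect only how far these samples spread, which may be technical.

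Uroplakins are best known from the urothelium, the lining of the bladder and urethra, where they pack into rigid plaques on the surface of the superficial umbrella cells. Upk1a and Upk1b are tetraspanins, proteins that cross the membrane repeatedly, and each pairs with a partner that crosses it once. Upk1a pairs with Upk2, and Upk1b pairs with Upk3a or Upk3b. Upk3b is also a marker of mesothelium, the cell layer that covers organs of the body cavities. The question the design sets is which of these genes differed with loss of Med1, and whether they did so alike in both lobes.

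The results turn on Upk1a and Upk3b, and the RefSeq promoter table (assembly GRCm38.p6) holds windows from 250 bases before to 50 after the start for 3 of the 5 genes, these 2 and Upk3a; Upk1b and Upk2 are named only. The Upk1a window is chr7:30612685-30612984 on the minus strand, and the Upk3b window is chr5:136038246-136038545 on the plus strand. Both are printed 5′ to 3′ along the gene, with capitals on the matches to the motifs searched.
Upk1a: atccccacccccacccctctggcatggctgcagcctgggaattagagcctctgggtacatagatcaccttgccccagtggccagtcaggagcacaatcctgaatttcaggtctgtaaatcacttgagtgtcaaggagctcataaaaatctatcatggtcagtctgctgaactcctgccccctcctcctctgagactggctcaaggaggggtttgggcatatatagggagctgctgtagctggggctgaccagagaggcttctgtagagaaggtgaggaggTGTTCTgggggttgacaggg
Upk3b: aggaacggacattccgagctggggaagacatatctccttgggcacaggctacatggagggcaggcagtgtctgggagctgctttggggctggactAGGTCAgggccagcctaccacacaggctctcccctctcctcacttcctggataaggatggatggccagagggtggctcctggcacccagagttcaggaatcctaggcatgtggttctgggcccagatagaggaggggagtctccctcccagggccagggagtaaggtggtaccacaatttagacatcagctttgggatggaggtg
Both strands were searched for AGGTCA (a nuclear receptor half-site), AGAACA (an androgen receptor half-site), AGATAA (read by Gata factors), CCGGTT (grainyhead-like factors) and TATAAA (the TATA box). The capitals in Upk1a are TGTTCT, which is AGAACA on the opposite strand, beginning 30 bases after the start. Those in Upk3b are AGGTCA, 155 bases before the start. Upk3a held only AGATAA, on the opposite strand and 188 bases before the start. No matches overlapped. Of the 32851 windows in the table, 19.0% held AGAACA, 16.3% AGGTCA, 11.2% AGATAA, 13.6% TATAAA and 6.83% CCGGTT, and a match of this length is a description of the letters only.

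The deposited values are log2 signals, so a difference of 1 is a 2-fold change. Med1 itself was lower in knockout than in wild type ventral arrays by 0.57 ± 0.12 (SE) log2 units (limma adjusted p = 0.0119; 0.0518 without knockout ventral replicate 3), and in lateral arrays the difference was -0.13 ± 0.12 (adjusted p = 0.622). The lateral arrays are therefore called "labelled knockout", and every lateral direction below rests on that label. Wild type ventral replicate 3 and labelled knockout lateral replicate 3 stood apart from the other arrays of their groups in seminal vesicle genes (Svs2 at 7.55 against 2.80 and 2.99, and at 8.71 against 11.89 and 11.99), so counts of uroplakins that passed the test are also given without both. The 2 lobes appear to have been normalized apart, with array medians of 6.39 to 6.43 in ventral and 6.05 to 6.06 in lateral arrays. Genotype is compared within a lobe, where this does not enter. A group mean below the lower quartile of the lobe's probe sets (4.74 for ventral, 4.53 for lateral) is called low signal, a mark chosen with the values known. All 5 genes lay above it in all 4 groups, while 34 to 36 of 39 olfactory receptor genes, which prostate is not known to use, lay below it. These arrays read whole tissue, in which fewer cells of a type and less RNA per cell cannot be told apart.

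In the lateral lobe Upk1a and Upk3b rose in the arrays labelled knockout, by 1.61-fold and 1.66-fold, while Upk1b differed by -0.030 ± 0.10 log2 units and did not pass the test. Upk2 and Upk3a differed by 0.32 each, with no overlap between the groups, but did not pass after adjustment over all genes. In the ventral lobe none of the 5 passed. So 2 of 5 uroplakins passed in the lateral lobe, against 5.03% of all genes (1.62% of all genes rose), and 0 of 5 in the ventral lobe, against 9.08%. For the count of 0, 1 gene (Upk3a) had an unadjusted p under 0.05. Without both arrays that stood apart the counts were again 2 and 0.

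**Figure D1:**
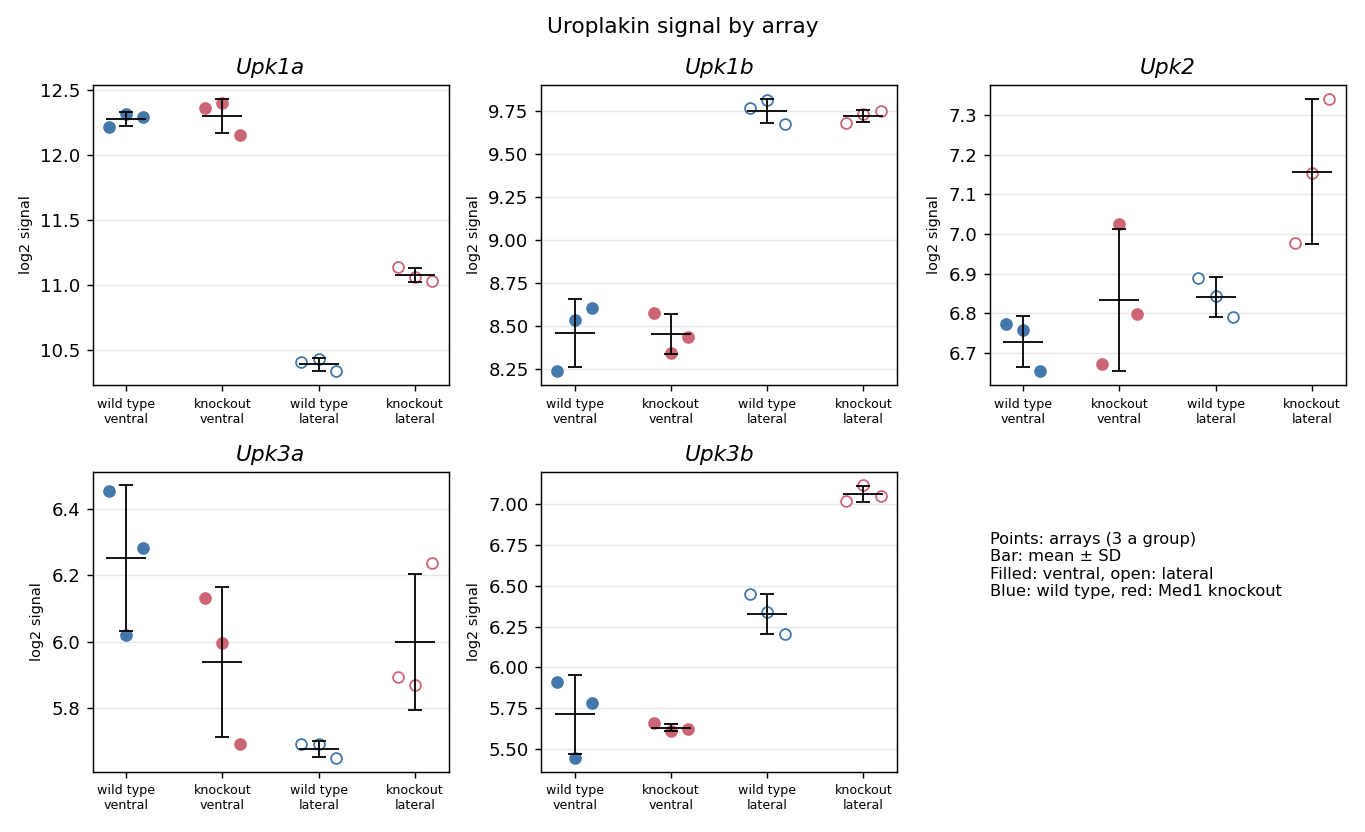
Log2 signal (vertical axis, scaled separately in each panel) of the 5 uroplakins on each of the 12 arrays, grouped by lobe and genotype on the horizontal axis, with 1 point per array (filled for ventral, open for lateral; blue for wild type, red for knockout) and bars for the mean ± SD of 3 arrays. In the lateral lobe Upk1a lay at 10.33 to 10.43 in wild type and 11.03 to 11.13 in labelled knockout arrays and Upk3b at 6.20 to 6.45 and 7.02 to 7.11, while Upk1b overlapped between the genotypes in both lobes.

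Upk1a is the tetraspanin that pairs with Upk2. In ventral arrays its log2 signal was 12.21, 12.32 and 12.29 in wild type and 12.36, 12.40 and 12.15 in knockout. The groups overlapped, and the highest and the lowest value were both knockout arrays. The means were 12.27 ± 0.054 and 12.30 ± 0.13 (SD, n = 3), a difference of 0.027 ± 0.085 (SE; 95% interval -0.16 to 0.21; limma adjusted p = 0.881). In lateral arrays the values were 10.40, 10.43 and 10.33 in wild type and 11.13, 11.06 and 11.03 in those labelled knockout. Every labelled knockout array lay above every wild type one, and the gap between the groups exceeded the range within either. The means were 10.39 ± 0.050 and 11.07 ± 0.054, a rise of 0.68 ± 0.085 (95% interval 0.50 to 0.87; adjusted p = 2.28e-04). Ranked by signed difference, Upk1a was at place 76 of 18194 genes.

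Upk2, its single-pass partner, did not pass in either lobe. Its ventral values were 6.77, 6.76 and 6.66 in wild type and 6.67, 7.03 and 6.80 in knockout, a difference of 0.10 ± 0.11 (95% interval -0.13 to 0.34; adjusted p = 0.600), with overlapping groups. Its lateral values were 6.89, 6.84 and 6.79 in wild type and 6.98, 7.15 and 7.34 in those labelled knockout. These groups did not overlap, and the labelled knockout arrays were spread more widely (SD 0.18 against 0.050, n = 3 each). The lateral difference was 0.32 ± 0.11 (95% interval 0.083 to 0.55; unadjusted p = 0.0115 and adjusted p = 0.119 from limma). The intervals of the lateral differences of Upk1a and Upk2 were 0.50 to 0.87 and 0.083 to 0.55, and the difference between the 2 genes was not tested.

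Upk1b, the tetraspanin that pairs with Upk3a and Upk3b, overlapped between the genotypes in both lobes. Its ventral values were 8.24, 8.54 and 8.60 in wild type and 8.58, 8.35 and 8.43 in knockout, a difference of -0.0072 ± 0.10 (95% interval -0.23 to 0.21; adjusted p = 0.977). Its lateral values were 9.77, 9.82 and 9.68 in wild type and 9.68, 9.73 and 9.75 in those labelled knockout, a difference of -0.030 ± 0.10 (-0.25 to 0.19; adjusted p = 0.905). The lateral interval ends at 0.19, and the estimate for Upk1a in the same lobe was 0.68.

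Upk3a, a single-pass partner of Upk1b, was the nearest to passing in the ventral lobe. Its ventral values were 6.45, 6.02 and 6.28 in wild type and 6.13, 5.99 and 5.69 in knockout, with 1 knockout array above the lowest wild type one. The difference was -0.31 ± 0.14 (95% interval -0.61 to -0.021; unadjusted p = 0.0373 and adjusted p = 0.170 from limma). In lateral arrays the values were 5.69, 5.69 and 5.65 in wild type and 5.89, 5.87 and 6.23 in those labelled knockout. These groups did not overlap, and 1 labelled knockout array, replicate 3, lay well above the other 2. The difference was 0.32 ± 0.14 (0.030 to 0.61; unadjusted p = 0.0332 and adjusted p = 0.207).

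Upk3b, the other single-pass partner of Upk1b, had the largest lateral difference of the 5. Its ventral values were 5.91, 5.45 and 5.78 in wild type and 5.66, 5.61 and 5.63 in knockout, with the knockout arrays inside the wild type range. The difference was -0.081 ± 0.11 (95% interval -0.32 to 0.16; adjusted p = 0.698). In lateral arrays the values were 6.45, 6.34 and 6.20 in wild type and 7.02, 7.11 and 7.05 in those labelled knockout, with a gap between the groups larger than the range within either. The means were 6.33 ± 0.12 and 7.06 ± 0.048 (SD, n = 3), a rise of 0.73 ± 0.11 (0.49 to 0.97; adjusted p = 0.00123), at place 64 of 18194 genes.

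In the lateral lobe 4 of 5 uroplakins did not overlap between the genotypes, against 26.9% of all genes; in the ventral lobe 0 of 5 were without overlap, against 29.5%. Without both arrays that stood apart, Upk1a rose by 0.71 (limma adjusted p = 0.00235) and Upk3b by 0.74 (adjusted p = 0.00913) in the lateral lobe.

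Whether the lobes differed in these changes was tested by the difference of the differences, lateral minus ventral. The labels do not say whether ventral and lateral arrays share animals, and the test treats them as separate. It was 0.66 ± 0.12 for Upk1a (limma adjusted p = 0.00376) and 0.81 ± 0.16 for Upk3b (adjusted p = 0.00518), so 2 of 5 passed, against 9.31% of all genes (2.80% with a positive difference). Upk3a had 0.63 ± 0.19 and missed the threshold (adjusted p = 0.0538). Its lateral and ventral differences lay on opposite sides of 0, and it passed without wild type ventral replicate 2 or without knockout ventral replicate 1, over a range of 0.51 to 0.75 (adjusted p 0.0280 to 0.127) when arrays were left out one at a time. Upk2 had 0.21 ± 0.15 (adjusted p = 0.409) and Upk1b -0.023 ± 0.14 (adjusted p = 0.938). Without both arrays that stood apart, the values were 0.67 for Upk1a (adjusted p = 0.0212) and 0.78 for Upk3b (adjusted p = 0.0325). Averaged over the lobes, Upk1a rose by 0.36 ± 0.060 (adjusted p = 0.00257) and Upk3b by 0.32 ± 0.078 (adjusted p = 0.0244), 2 of 5 against 5.63% of all genes. Both averages are carried by the lateral lobe. That of Upk3b no longer passed without knockout ventral replicate 1, wild type lateral replicate 2 or 3, or labelled knockout lateral replicate 2 (range 0.26 to 0.37; adjusted p 0.0123 to 0.0697), nor without both arrays that stood apart (0.34; adjusted p = 0.0746).

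**Figure D2:**
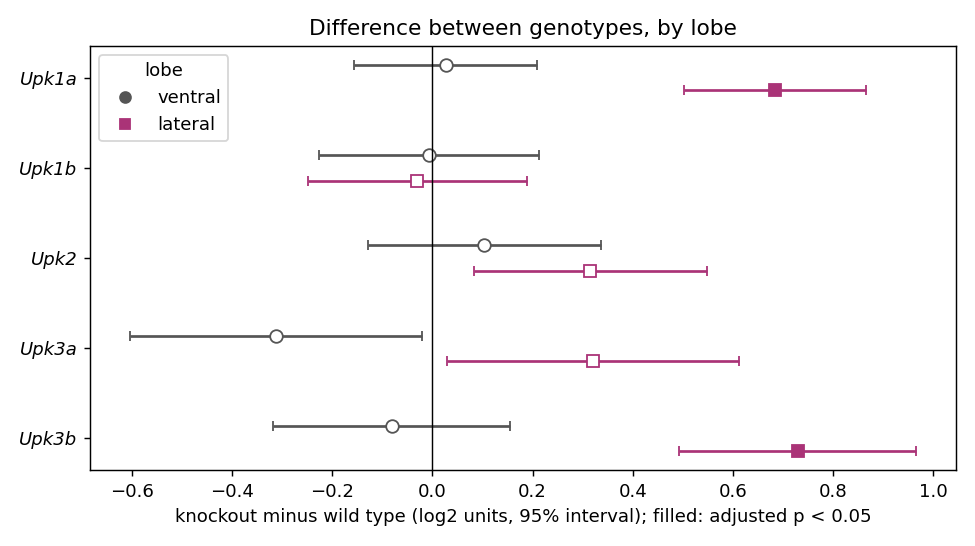
Differences between the genotypes (horizontal axis, log2 units, knockout minus wild type) for each uroplakin in the ventral and the lateral lobe, with points at the limma estimates, filled where the adjusted p was under 0.05, and bars for their 95% intervals. The lateral intervals of Upk1a (0.50 to 0.87) and Upk3b (0.49 to 0.97) lie apart from their ventral ones, while the 2 intervals of Upk1b nearly coincide.

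Upk1b and Upk3b could be read from further probe sets, here tested with adjustment over all probe sets. The dimmer probe set of Upk3b, whose name carries the suffix for probes shared by several transcripts, had 3.46, 3.07 and 3.13 in wild type ventral and 2.91, 3.17 and 3.26 in knockout ventral arrays, all low signal. In lateral arrays it had 5.70, 5.84 and 5.49 in wild type and 7.41, 6.56 and 7.33 in those labelled knockout. The lateral groups did not overlap, and the rise was 1.43 ± 0.19, or 2.69-fold (limma adjusted p = 6.52e-04). With low signal in both ventral groups, no ventral difference and no difference between the lobes can be read from it. Both probe sets of Upk3b thus rose in the lateral lobe, by 0.73 and 1.43. Upk3bl, a related gene next to Upk3b in the RefSeq gene table and chosen here after its values were seen, had low signal in all 4 groups (3.98 to 4.22) and differed by 0.11 in the lateral lobe (adjusted p = 0.532).

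The 3 further probe sets of Upk1b differed in sign from its brightest in the ventral lobe. They gave ventral differences of 0.27, 0.31 and 0.22, of which none passed (limma adjusted p = 0.117, 0.146 and 0.265), against -0.0072 for the brightest. The genotypes did not overlap in the first of the 3. Their lateral differences were -0.18, -0.095 and -0.13 (limma adjusted p = 0.354, 0.735 and 0.602), again without a call, although the genotypes did not overlap in any of the 3. By brightest probe set, 29.5% of all genes did not overlap in ventral and 26.9% in lateral arrays. The 3 probe sets read the same gene and are not separate observations. The difference between the lobes was -0.45, -0.40 and -0.35 (adjusted p = 0.0657, 0.176 and 0.208). No probe set of Upk1b passed in either lobe, and all 4 had a lateral difference below 0. The first 2 of the further probe sets carry the suffix for probes that may bind other transcripts.

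**Figure D3:**
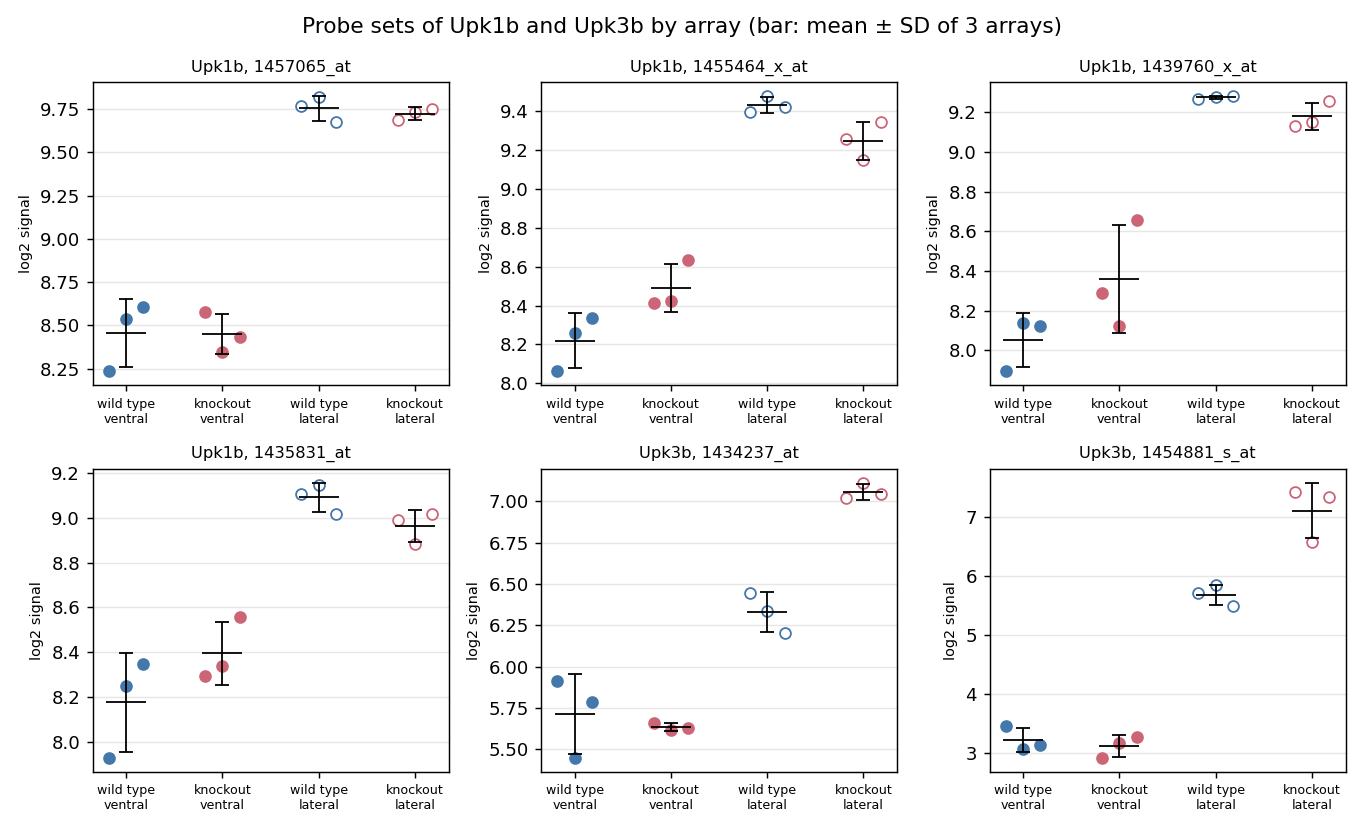
Log2 signal (vertical axis, scaled separately in each panel) on each array for the 4 probe sets of Upk1b and the 2 of Upk3b, by group on the horizontal axis, with bars for the mean ± SD of 3 arrays. All 4 Upk1b probe sets sit higher in lateral than in ventral arrays, and both Upk3b probe sets sit higher in labelled knockout than in wild type lateral arrays (by 0.73 and 1.43).

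The family was unevenly placed between the lobes. Because all genes shifted by a median of -0.34 from ventral to lateral in wild type and -0.31 in knockout arrays, values centred on each array's median are given beside the deposited ones. In wild type arrays Upk1a was lower in lateral than in ventral prostate by 1.88 ± 0.085 (a fall to 10.39 from 12.27; limma adjusted p = 3.34e-10), or 1.52 after centring. Upk1b was higher in lateral by 1.29 ± 0.10 (adjusted p = 8.96e-08), or 1.65 after centring, and Upk3b by 0.61 ± 0.11 (adjusted p = 2.06e-04), or 0.97 after centring. The 2 tetraspanins of the family thus differed between the lobes in opposite directions, on both scales. The other 3 probe sets of Upk1b were also higher in lateral, by 0.91 to 1.22. The dimmer probe set of Upk3b gave an estimate of 2.46 ± 0.19 higher in lateral, but with low ventral signal the size of this difference cannot be read. Upk2 differed by 0.11 as deposited (adjusted p = 0.372) and 0.47 after centring (adjusted p = 0.00233). Upk3a differed by -0.57 as deposited (adjusted p = 0.00187) and -0.21 after centring (adjusted p = 0.182), so neither call held on both scales. As deposited, 4 of 5 passed, against 68.1% of all genes, a share near that of the genes at large. All genes split into 2240 higher and 10144 lower in lateral as deposited, and 5574 and 5250 after centring.

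In knockout arrays the distance between the lobes was smaller for Upk1a, at -1.23 (limma adjusted p = 2.14e-08; -0.86 after centring), and larger for Upk3b, at 1.43 (adjusted p = 5.85e-08; 1.79 after centring). These 2 shifts restate the difference between the lobes tested above, since they use the same 4 group means. Upk1b kept 1.27 (adjusted p = 8.72e-08; 1.64 after centring). Upk2 was higher in lateral by 0.32 (adjusted p = 0.0165; 0.69 after centring), a call lost as deposited without knockout ventral replicate 1 (adjusted p = 0.0819), without labelled knockout lateral replicate 3 (adjusted p = 0.0879) and without both arrays that stood apart (0.23; adjusted p = 0.0984). Upk3a had 0.061 as deposited (adjusted p = 0.710) and 0.42 after centring (adjusted p = 0.0124). As deposited, 4 of 5 passed, against 67.3% of all genes, and 3 of 5 without both arrays that stood apart. In knockout arrays all genes split into 2583 higher and 9657 lower as deposited, and 6353 and 5715 after centring. In group order, Upk1a was highest in the 2 ventral groups, which did not differ beyond their spread, then in labelled knockout lateral and last in wild type lateral arrays, with each of these steps past the test on both scales. Upk3b ran the other way, with the 2 ventral groups lowest and not apart, then wild type lateral and labelled knockout lateral arrays. Upk1b, by its brightest probe set, fell into 2 levels by lobe alone. Its other 3 probe sets differed with genotype in opposite directions in the 2 lobes, without passing the test.

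The proteins that carry uroplakins to the surface and take them back were described from a list of 11 genes (Rab and SNARE proteins, Mal and sorting factors), chosen like the other lists with earlier results of these data known. In this list 0 rose and 1 fell in the ventral lobe, and 1 rose and 0 fell in the lateral lobe. The gene was Mal in both, a membrane raft protein needed for uroplakins to join the apical membrane. Mal had 8.44, 8.47 and 8.93 in wild type and 8.05, 8.15 and 8.22 in knockout ventral arrays, and 8.67, 8.68 and 8.68 in wild type and 9.16, 9.08 and 9.21 in labelled knockout lateral arrays. The groups did not overlap in either lobe, and wild type ventral replicate 3 lay above the other 2. Mal fell by 0.47 ± 0.12 in ventral (limma adjusted p = 0.0218) and rose by 0.47 ± 0.12 in lateral arrays (adjusted p = 0.0297), and the difference between the lobes was 0.94 ± 0.16 (adjusted p = 0.00265). The ventral call was lost without wild type ventral replicate 3 (-0.31; adjusted p = 0.0689), without it and labelled knockout lateral replicate 3 together (adjusted p = 0.0871) or without knockout ventral replicate 1 (-0.42; adjusted p = 0.0729), and in a fit of the ventral arrays alone (adjusted p = 0.0911). The lateral call was lost when any 1 of the 6 lateral arrays was left out (0.44 to 0.51; adjusted p 0.0645 to 0.102), while the difference between the lobes passed in every alternative run. The list's median was -0.026 in ventral and -0.022 in lateral arrays, beside -0.020 and -0.0025 for all genes.

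Of the other tetraspanins, relatives of Upk1a and Upk1b, 27 of 29 were measured. In the ventral lobe 6 rose and 1 fell, among them Tspan8 (0.62), Cd9 (0.60), Tspan33 (0.81) and Tspan9 (0.63), with limma adjusted p from 3.64e-04 to 0.00140. In the lateral lobe 0 rose and 4 fell: Tspan8 by 0.48, Tspan2 by 0.62, Cd9 by 0.34 and Tspan1 by 0.31 (adjusted p 0.00282 to 0.0428). The lateral count was 2 with quantile normalization or without wild type lateral replicate 1, 2 or 3, and 7 without knockout ventral replicate 3. The lateral call of Tspan1 was lost in 14 of the 22 alternatives (adjusted p up to 0.162), among them each run that left out a wild type ventral or a lateral array other than labelled knockout replicate 1, and that of Cd9 in 6 (up to 0.120), among them each run without a wild type lateral array or labelled knockout lateral replicate 3. For the difference between the lobes, 0 were positive and 9 negative, the opposite sign to Upk1a. Negative was also the commoner sign among all 18194 genes, with 509 positive and 1184 negative. Of all genes, 1069 rose and 583 fell in ventral arrays, and 294 rose and 622 fell in lateral arrays. The list's median was 0.030 in ventral and -0.11 in lateral arrays.

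Transcription regulators of the urothelium, a list of 12 that includes Pparg, Gata3, Foxa1, Klf5 and Grhl3, had 0 genes past the test in either lobe by limma, with 2 in ventral and 4 in lateral arrays at an unadjusted p under 0.05. Over the alternatives run, at most 1 passed in either lobe. The list's median was -0.071 in ventral and -0.067 in lateral arrays.

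**Figure D4:**
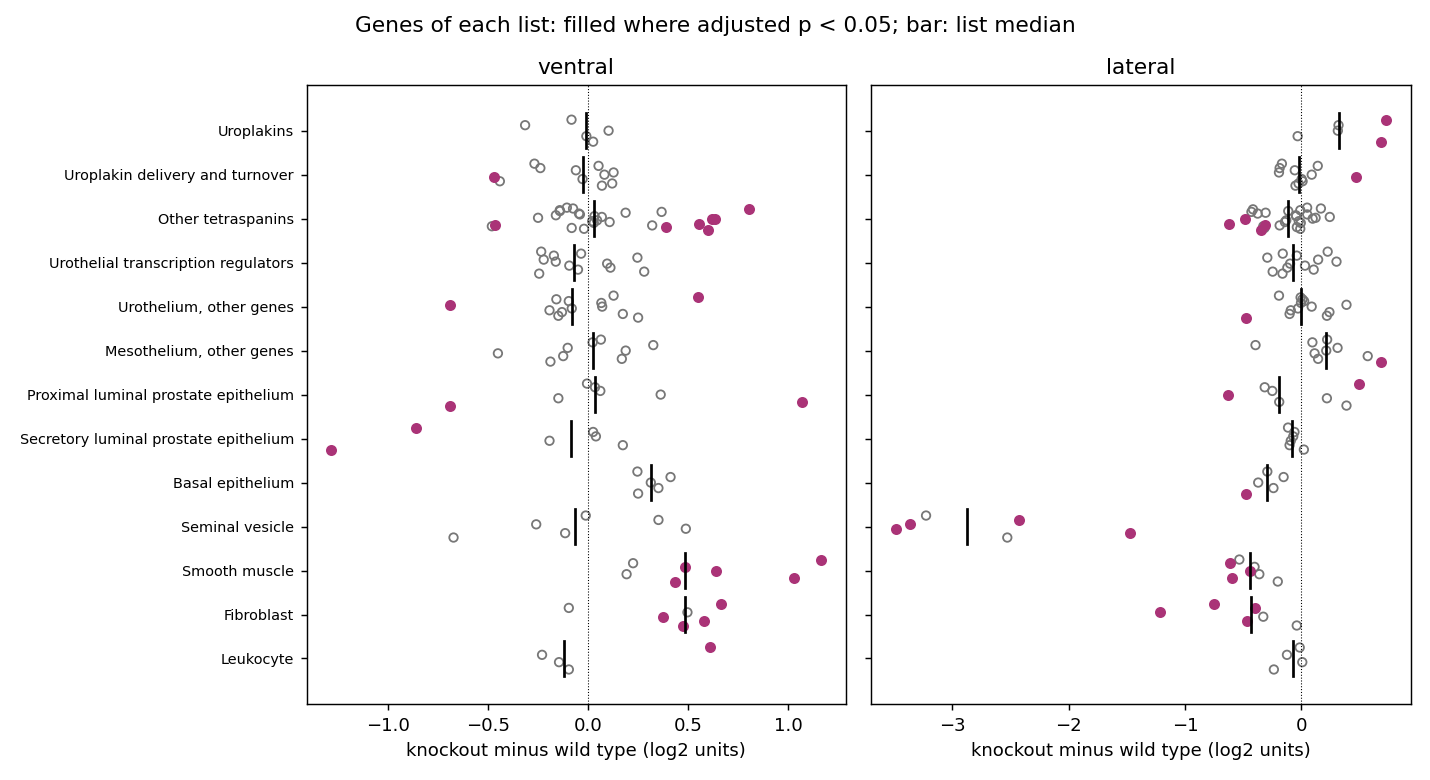
Differences between the genotypes (log2 units, knockout minus wild type) for the genes of each list in the ventral and the lateral lobe, with 1 point per gene, filled where the adjusted p was under 0.05, and a bar at the list's median; the horizontal scale differs between the lobes. The uroplakins have a lateral median of 0.32, beside medians of -0.022 for delivery and turnover and -0.11 for the other tetraspanins.

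Uroplakin signal in prostate tissue can come from several epithelia, and markers of the cell types in or near the samples are given beside it. Summed over the 5 genes on the linear scale, signal was 5307 to 5685 in wild type and 5103 to 5956 in knockout ventral arrays. It was 2344 to 2529 in wild type and 3322 to 3386 in labelled knockout lateral arrays. Most of each sum was Upk1a. Its geometric mean signal was 4952 in wild type and 5044 in knockout ventral arrays, and 1341 and 2156 in lateral arrays. Of 13 other urothelial markers, 1 rose (Cldn8, a claudin, by 0.55; limma adjusted p = 0.00279) and 1 fell (Psca, a surface antigen of urothelium and proximal prostate, by 0.69; adjusted p = 0.00253) in the ventral lobe, and 0 rose and 1 fell (Krt5, a basal keratin, by 0.47; limma adjusted p = 0.00679) in the lateral lobe. Their summed signal was 17868 to 18986 in wild type and 17056 to 17894 in labelled knockout lateral arrays. Of this lateral sum, 79.2% to 80.4% was Krt8, Krt18 and Krt19, keratins that prostate luminal cells also use, and the other 10 markers, split off after the values were seen, summed to 3715 to 3744 in wild type and 3385 to 3668 in labelled knockout lateral arrays. Snx31, a sorting nexin of umbrella cells, had low signal in every group, and Krt20, a keratin of umbrella cells, lay near the low mark at 4.66 to 4.95.

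Mesothelium was described by 9 markers besides Upk3b. In the lateral lobe 1 rose and 0 fell, and it was Msln, which encodes mesothelin, a surface protein of mesothelial cells. Msln had 5.37, 5.67 and 5.56 in wild type and 6.09, 6.34 and 6.25 in labelled knockout lateral arrays, without overlap. The rise was 0.69 ± 0.095 (limma adjusted p = 6.02e-04), and it passed in every alternative run that tested Msln. The filter on dim genes left Msln out. The estimated difference between the lobes was 0.88 ± 0.14 (limma adjusted p = 0.00115), and it passed wherever it was tested. Msln had low signal in both ventral groups (means of 4.54 in wild type and 4.36 in knockout), so no difference between the lobes can be read from it. The list's lateral median was 0.22 (0.14 with quantile normalization), beside -0.0025 for all genes and 0.10 for the mostly low-signal olfactory receptor genes. Its lateral differences ran from -0.39 for Aldh1a2, which did not pass, to 0.69 for Msln. Without labelled knockout lateral replicate 3, 2 genes passed. In the ventral lobe 0 of the 9 passed (1 at an unadjusted p under 0.05). Signal was low for 6 of the 9 in ventral and 3 of the 9 in lateral arrays, and the summed signal was 218 to 242 in wild type and 204 to 230 in knockout ventral arrays, and 309 to 379 in wild type and 337 to 405 in labelled knockout lateral arrays. The part of mesothelial cells in the lateral rise of Upk3b was not tested.

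Other markers also moved with the lateral groups. For the counts below, 5.03% of all genes passed in lateral and 9.08% in ventral arrays. Of 7 measured markers of proximal luminal epithelium, which lies near the urethra, 1 rose (Cldn10, by 0.50) and 1 fell (Wfdc2, by 0.63) in lateral arrays. The Cldn10 call was lost without wild type lateral replicate 3 or labelled knockout lateral replicate 2, and that of Wfdc2 with quantile normalization or without wild type ventral replicate 1, any wild type lateral array, or labelled knockout lateral replicate 1 or 2. Of 6 secretory luminal markers none passed in lateral arrays (0 at an unadjusted p under 0.05), and their summed signal was 34842 to 36235 in wild type and 33249 to 35110 in labelled knockout arrays. In ventral arrays 0 of the 6 secretory markers rose and 2 fell, Pbsn by 1.28 and Msmb by 0.86, both prostate secretory proteins. Of the 7 proximal markers, 1 rose (Krt4, a luminal keratin, by 1.07) and 1 fell (Psca, by 0.69) in ventral arrays. Smooth muscle markers summed to 26832 to 28332 in wild type and 19657 to 23396 in labelled knockout lateral arrays, with 3 of 7 fallen (0 without wild type lateral replicate 3 or labelled knockout lateral replicate 2, and 6 by the mean of a gene's probe sets). Fibroblast markers summed to 5963 to 6369 and 4320 to 5230, with 4 of 6 fallen (2 without wild type lateral replicate 3, and 1 by the mean of a gene's probe sets). Seminal vesicle genes summed to 38925 to 41098 and 1703 to 9236, with 4 of 6 fallen and a median of -2.88. In ventral arrays 5 of the 7 smooth muscle and 4 of the 6 fibroblast markers rose (the latter 2 without wild type ventral replicate 2 or without knockout ventral replicate 1 or 3). Of 5 basal markers, 0 passed in ventral (4 at an unadjusted p under 0.05; 3 rose without wild type ventral replicate 2) and 1 fell in lateral arrays; of 4 leukocyte markers 1, Csf1r, rose in ventral (0 without wild type ventral replicate 2 or knockout ventral replicate 3) and 0 passed in lateral arrays (0 at an unadjusted p under 0.05). The part of these shifts in the lateral rise of Upk1a and Upk3b was not tested.

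For each uroplakin the 3 genes with the most similar pattern were taken by Pearson correlation over the 12 arrays after each value was centred on the mean of its lobe. Only genes with a mean above the lower quartile of gene means were ranked, and uncharacterized loci were passed over. All 12 arrays enter each coefficient and share the group structure, so these are descriptions without a p-value. Upk1a was most like Wfdc6a (0.982), Mapk13 (0.976) and Fxyd3 (0.975). Wfdc6a rose by 2.20, Mapk13 by 0.96 and Fxyd3 by 1.17 in labelled knockout lateral arrays (limma adjusted p from 5.54e-07 to 1.94e-05), and none passed in the ventral lobe (adjusted p 0.485 to 0.983). Upk3b was most like Nol9 (0.952), Cdkl4 (0.947) and Nsun4 (0.941), of which Nol9 rose by 0.56 (adjusted p = 0.00253) and Nsun4 by 0.34 (adjusted p = 0.0318) in the lateral lobe. The genes nearest to Upk3a were Hdhd5 and Vsig10l (0.935 each) and Rsrp1 (0.934), and those nearest to Upk2 were Dram2 (0.883), Zbtb32 (0.859) and Ap5z1 (0.852); none of these 6 passed in either lobe. Upk1b had weaker likenesses, with Tacc3 (0.821), Sco2 (0.818) and Nprl2 (0.810). No uroplakin was among the 3 nearest genes of another.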

How the data were processed

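Total RNA of 12 mouse prostate samples was read on Affymetrix arrays of 45101 probe sets. The deposited log2 values were made by the authors with RMA in Affymetrix Expression Console, per the submitters' processing notes. RMA corrects background, quantile-normalizes and sums up each probe set. Values of equal rank spanned a median of 0.0493 log2 units over ventral, 0.0786 over lateral and 0.388 over all arrays. The platform annotation gave 1 symbol to 34958 probe sets, several to 932 and none to 9211. Symbols were updated through a RefSeq gene table (34754 matched), and the brightest probe set stood for each of 18194 genes. The test was limma 3.58.1 under R 4.3.3, fitted to 4 group means (8 residual and 5.68 prior degrees of freedom), calling a Benjamini-Hochberg adjusted p under 0.05 over all genes. The number of arrays, 3 a group, limits the precision. On simulated data for the ventral comparison, 32 of 67 genes changed by 0.5 log2 units were recovered and 67 of 67 changed by 1, with 11 false calls among 17994. Named were all members, Med1, up to 4 genes of smallest p among those passing per list and lobe, and the 3 nearest genes by likeness. Members and the 12 lists (106 of 114 genes measured, the others not analysed here) were chosen with earlier results of these data known. Alternatives covered normalization, probe set handling, a filter on dim genes, the variance model, samples in the fit, the replicate number as a block, and leaving out arrays.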

Additional observations from a re-analysis of the deposited data

Results flagged for a closer look

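Upk1a and Upk3b differed between the lobes in their response to genotype, by a test of the difference itself. Lateral minus ventral was 0.66 log2 units for Upk1a (limma adjusted p = 0.00376; 0.58 to 0.71 over the 21 alternatives that give it, adjusted p 2.53e-04 to 0.0212). It was 0.81 for Upk3b (limma adjusted p = 0.00518), with 0.71 to 1.17 over the same alternatives (adjusted p 9.09e-04 to 0.0325). The upper end of 1.17 came from the mean of both Upk3b probe sets. The dimmer of them had low signal in both ventral groups, so that value cannot be read as a size.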

How the results depend on the processing

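In the lateral lobe the rises of Upk1a (0.65 to 0.72; adjusted p 5.78e-06 to 0.00235) and Upk3b (0.67 to 1.08; adjusted p 1.03e-04 to 0.00913) passed in all 22 alternatives. Leaving out a ventral array, fitting lateral arrays alone or adding the block cannot alter these estimates, only their SE and p-values. Of 644 values of the single uroplakins under the alternatives, 591 kept direction and side of the threshold. Another 34 changed sign, 9 newly passed and 10 no longer passed, and the cause was not tested. Ventral Upk1b was 0.20 by the mean of probe sets, 0.068 with array weights and 0.066 without both arrays that stood apart. Quantile normalization turned Upk1b to 0.046 in the lateral lobe, 0.068 in the difference between lobes and 0.012 in the average of lobes, where the mean of probe sets gave 0.044, array weights 0.025 and leaving out both arrays 0.011. The lobe difference of Upk3a passed with median centring (0.64; adjusted p = 0.0494), the mean of probe sets (0.63; 0.0484) and array weights (0.63; 0.0303). Without both arrays that stood apart it was 0.50, and that of Upk1b was -0.11. Its average over lobes was -0.0024 with median centring and -0.047 without both arrays, where that of Upk3b was 0.34 and the count 1. Between lobes in wild type, quantile normalization and centring gave Upk2 0.51 and 0.47 and Upk3a -0.24 and -0.21; in knockout they gave Upk3a 0.39 and 0.42, and leaving out both arrays gave Upk2 0.23 and Upk3a -0.057. Lateral Med1 was 0.045 by the mean of probe sets. Leaving out single arrays gave ranges, in the ventral lobe, of -0.021 to 0.10 for Upk1a, -0.12 to 0.066 for Upk1b and -0.22 to 0.018 for Upk3b; -0.068 to 0.0012 for Upk1b in the lateral lobe; -0.096 to 0.089 for Upk1b and 0.51 to 0.75 for Upk3a in the difference between lobes; -0.075 to 0.018 for Upk1b, -0.055 to 0.066 for Upk3a, 0.26 to 0.37 for Upk3b and 1 to 2 for the count in the average of lobes; and 0.23 to 0.42 for Upk2 and -0.063 to 0.16 for Upk3a between lobes in knockout. Same-numbered arrays of the 2 genotypes deviated together only weakly (correlations of 0.037, 0.12 and 0.029 in ventral and -0.0071, 0.039 and -0.0038 in lateral arrays), and same-numbered arrays of the 2 lobes did so no more (0.072, 0.019 and -0.033 in wild type and -0.046, -0.061 and -0.0088 in knockout), so the numbers were not taken to pair arrays; whether lobes share animals is not stated. With the replicate number as a block, lateral Upk1a had 0.68 (adjusted p = 5.78e-04) and Upk3b 0.73 (adjusted p = 0.00225), and no uroplakin count changed. Upk3a fell under the filter on dim genes and was not tested there, and a fit of a single lobe or genotype gives no value for the difference between lobes or the average. RMA values carry no detection calls, so levels near the low mark limit what can be read from Upk3a, Krt20 and the ventral mesothelial markers.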
